A study of Mus musculus with 8 samples.

Results

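The genes described here are 33 B cell genes measured in RNA of macrophages. They were chosen by name: a probe on the array belonged to the set when its RefSeq transcript was one of a listed B cell gene. All 33 listed genes were found, through 47 of the 39429 gene probes, and they are 33 of the 20886 named genes on the array. All 33 were well above background on 8 of 8 arrays. The samples were labelled as macrophages, so these genes are a set of another cell type's markers read in that RNA.

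Macrophages came from male mice treated with lipopolysaccharide (LPS), a bacterial cell wall component that activates macrophages through the receptor TLR4. One group of mice was wild type (WT) and the other lacked EP2 (EP2KO), which the gene Ptger2 encodes and prostaglandin E2 activates. Both groups had received LPS, so the arrays hold no untreated group. RNA of 4 samples per genotype, WT 1 to 4 and EP2KO 1 to 4, was hybridised to 1-colour Agilent arrays, 1 sample per array. The labels used here give no strain, age, LPS dose, time, tissue site or purification step. Nor do they say that replicates were separate mice: every p-value here therefore rests on the spread between these samples alone, which may be technical.

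B cells recognise antigen through an immunoglobulin held in the membrane by a pair of signalling chains, CD79A and CD79B. Engagement of the receptor activates the kinases BLK and BTK, the adaptor BLNK and the phospholipase PLCG2, and it is restrained by coreceptors such as CD22 and CD72. The transcription factors EBF1 and PAX5 establish and hold B cell identity, and B cells live beside macrophages in the peritoneal cavity, spleen and lymph nodes.

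Every value below is the log2 of a probe's signal minus the 75th percentile of its array, so 0 is the array's 75th percentile. Values of different genes come from different probes and are not set against each other. The arrays were on 2 slides, each with 2 arrays of either genotype: WT 1, WT 2, EP2KO 1 and EP2KO 2 on slide 1, the other 4 on slide 2. The slides were scanned on different days, so slide and scan day cannot be told apart, and whether replicates 1 and 2 differed from 3 and 4 as samples before the arrays were run cannot be told apart from either. Within each slide WT and EP2KO arrays held different positions, and position on the slide cannot be told apart from genotype. The 75th percentile signal ran from 987 (WT 2) to 1508 (WT 3), and the first principal component over all features held 61.0% of the variance. The number of arrays limits the precision.

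Ptger2, the gene of EP2, checks the labels: it lay between -0.15 and 0.17 on the WT arrays and between -2.16 and -1.49 on the EP2KO arrays, with no overlap. Its difference was -1.76 ± 0.17 (SE, n = 4 arrays per genotype; limma adjusted p = 0.0615), and with the slide as a block the adjusted p was 0.0328. Macrophage markers were present throughout: all 19 of those tested were well above background on 8 of 8 arrays. Adgre1, which encodes F4/80, lay between 4.56 and 5.32 over the 8 arrays, and Csf1r, the receptor for macrophage colony stimulating factor, between 6.30 and 6.99.

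Over the 8 arrays the defining markers of B cells split by slide, while the ranges of the genotypes overlapped. Within slide 1 the genotypes also overlapped in Cd79a, Cd79b, Ms4a1 and Pax5. On slide 2 both EP2KO arrays lay below both WT arrays in each of these genes, a pattern of 21.4% of all features. Cd79a, a signalling chain of the B cell receptor, had values of -0.31, -1.12, -4.03 and -3.40 on WT 1 to 4 and of -0.08, -1.15, -4.54 and -4.18 on EP2KO 1 to 4. Replicates 1 and 2 of both genotypes were high and replicates 3 and 4 were low, with a wide gap between them. The WT and EP2KO ranges over the 8 arrays overlapped. Cd79a was 10.4-fold lower on slide 2 than on slide 1 (-3.37 ± 0.33, SE, n = 4 arrays per slide; limma adjusted p = 0.000379). Cd79b, its partner chain, had values of 5.55, 5.25, 2.30 and 2.58 on WT 1 to 4 and of 5.47, 4.82, 1.35 and 2.17 on EP2KO 1 to 4. It was 9.03-fold lower on slide 2, and again the genotypes overlapped over the 8 arrays.

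Ms4a1, which encodes the B cell surface protein CD20, had values of 5.02, 4.69, 1.19 and 2.01 on WT 1 to 4 and of 5.20, 4.43, 0.32 and 1.09 on EP2KO 1 to 4. Its slide difference was the largest of the 33 genes in size, 12.8-fold lower on slide 2 (-3.68 ± 0.32, SE, n = 4 arrays per slide; adjusted p = 0.000258). Pax5, the lineage factor, had values of -3.85, -4.30, -5.36 and -5.77 on WT 1 to 4 and of -3.69, -4.39, -6.24 and -6.07 on EP2KO 1 to 4. It was 3.50-fold lower on slide 2 (adjusted p = 0.000992), with every slide 2 array below every slide 1 array. The other Pax5 probe was well above background on only 5 arrays and was not used.

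**Figure D1:**
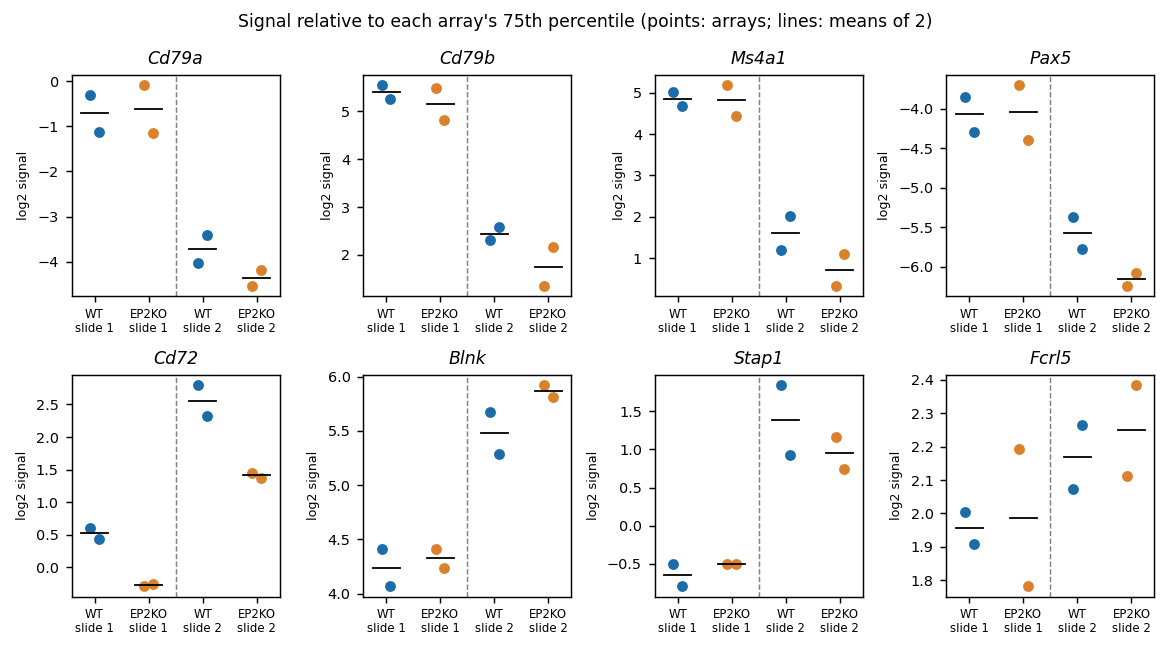
Log2 signal minus the 75th percentile of the array (y axis) on the arrays of each genotype and slide (x axis) for Cd79a, Cd79b, Ms4a1, Pax5, Cd72, Blnk, Stap1 and Fcrl5, 1 panel each; a point is 1 array and a line the mean of 2. In Ms4a1, for example, the 4 slide 1 arrays sit between 4.43 and 5.20 and the 4 slide 2 arrays between 0.32 and 2.01. WT and EP2KO points of Ms4a1 overlap on slide 1, and on slide 2 both EP2KO points lie below both WT points.

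Of the 33 B cell genes, 28 were lower and 3 were higher on slide 2 by limma at an adjusted p of 0.05, and 2 did not pass. Over all 20736 features tested, 43.2% were called, 18.2% lower and 25.1% higher on slide 2. The median difference of the 33 genes was -2.41, and the median over all features was 0.06. The slide 2 arrays lay wholly below the slide 1 arrays for 27 genes, a pattern of 18% of all features, and wholly above for 3, a pattern of 25.1%. In bulk RNA, fewer cells of a type and less RNA per cell cannot be told apart.

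A subset of 18 genes was called and over 4-fold lower on slide 2, as were 3.31% of all features. Their median difference was -3.11, a median fold of 8.63 with a range from 4.55 (Cd24a) to 12.8 (Ms4a1). The 15 other genes had a median of -0.66. The drop was present in both genotypes: the median slide difference of the 33 genes was -2.07 in WT and -2.48 in EP2KO.

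The receptor chains and the proteins made with them all fell. Beside Cd79a and Cd79b, Vpreb3, a protein related to the surrogate light chain of the pre-B cell receptor, was 8.58-fold lower on slide 2 (adjusted p = 0.000317). Its values were 0.91, 0.31, -2.36 and -2.24 on WT 1 to 4, against 0.52, -0.63, -3.62 and -3.07 on EP2KO 1 to 4. All 4 slide 2 arrays were lower than all 4 slide 1 arrays, and the genotypes overlapped over the 8 arrays.

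Promoters of B cell genes often carry the octamer, which is bound by OCT factors such as OCT2 (Pou2f2) with their coactivator OBF1 (Pou2af1), and sites of EBF1. RefSeq's promoter table of GRCm38.p6 had entries for 26 of the 33 genes. Within 300 bases (250 before and 50 after the start), the octamer ATGCAAAT or its reverse complement ATTTGCAT was found in 2 of these 26 genes, 7.69%, and in 1.97% of 27025 genes in the table. Sequence of the form TCCCNNGGGA, a simplified EBF1 motif that reads the same on both strands, was found in 1 of the 26, 3.85%, against 1.06% of all genes. The 3 are printed because their genes took different courses between the slides: Vpreb3 fell, Blnk rose and Cd22 did not pass. Each line gives the 150 bases before the start, 5′ to 3′ on the gene's strand, with the motif in capitals. They are chr10:75948150-75948299 on the + strand (Vpreb3), chr19:40994222-40994371 on the − strand (Blnk) and chr7:30879029-30879178 on the − strand (Cd22).
Vpreb3: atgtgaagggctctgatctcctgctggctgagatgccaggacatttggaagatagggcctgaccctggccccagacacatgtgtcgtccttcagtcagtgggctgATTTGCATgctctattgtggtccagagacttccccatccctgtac
Blnk: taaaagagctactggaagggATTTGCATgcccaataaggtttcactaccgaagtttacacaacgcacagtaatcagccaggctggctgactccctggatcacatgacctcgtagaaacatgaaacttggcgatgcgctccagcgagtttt
Cd22: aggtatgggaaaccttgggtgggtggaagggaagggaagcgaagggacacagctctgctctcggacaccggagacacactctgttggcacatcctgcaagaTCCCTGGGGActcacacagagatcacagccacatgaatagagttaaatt
The motif begins 45 bases before the start in Vpreb3, 130 in Blnk and 49 in Cd22. A match of letters is a description and shows no binding, and a window without these letters shows nothing about the factors.

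All 5 genes grouped as other surface proteins fell: Ms4a1, Ly6d, Cd38, Cd24a and Cd37 were each lower on slide 2. Ly6d, a marker of committed B lineage progenitors and B cells, was 8.67-fold lower and Cd24a, the heat stable antigen, 4.55-fold. Cd37, a tetraspanin of B cells and other leukocytes, was 1.58-fold lower (adjusted p = 0.00629). Cd38, an NAD-consuming ectoenzyme that activated macrophages also express, was 6.29-fold lower (adjusted p = 0.00138). Its values were 3.24, 3.96, 1.1 and 1.96 on WT 1 to 4, against 3.46, 3.29, -0.32 and 0.60 on EP2KO 1 to 4. The lowest 2 of these were the slide 2 arrays of EP2KO.

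The 3 inhibitory coreceptor genes differed in direction. Siglecg, a sialic acid binding inhibitor of receptor signalling, was 5.66-fold lower on slide 2 (adjusted p = 0.00166). Cd22, which shares that function, had values of 0.39, 0.14, -0.62 and -0.23 on WT 1 to 4 and of 0.59, -0.19, 0.15 and -0.02 on EP2KO 1 to 4. The slides overlapped in Cd22 and its difference of -0.41 ± 0.22 (SE, n = 4 arrays per slide) did not pass (adjusted p = 0.167). Cd72, a C-type lectin-like coreceptor, went the other way. Its values were 0.60, 0.44, 2.80 and 2.32 on WT 1 to 4, against -0.30, -0.26, 1.45 and 1.38 on EP2KO 1 to 4. All slide 2 arrays were above all slide 1 arrays, 3.64-fold on average (1.86 ± 0.14, SE, n = 4 arrays per slide; adjusted p = 0.000166), and within each slide both EP2KO arrays were below both WT arrays.

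Among the Fc receptor-like proteins, Fcrla, an intracellular member of B cells, was 8.87-fold lower on slide 2 and Fcrl1, an activating surface member, 3.74-fold. Fcrl1 had values of -1.25, -1.33, -3.42 and -2.99 on WT 1 to 4 and of -1.27, -2.29, -3.98 and -3.38 on EP2KO 1 to 4, with the slides apart. Fcrl5 did not pass, with a difference of 0.24 ± 0.13 (SE, n = 4 arrays per slide; adjusted p = 0.177) and overlapping slides. Fcrl5 is the gene whose probes differed the most: the probe that stands for it gave 0.24 and another -1.13. The mean of its probes gave -0.45 (adjusted p = 0.0434), so the direction of Fcrl5 depends on the probe. Over the 12 genes with several kept probes, the probes had the same sign for the slide difference in 11 and for the genotype difference in 10.

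Both receptors for complement fragments and IgE fell: Cr2, the complement receptor CD21, was 2.16-fold lower on slide 2, and Fcer2a, the low affinity IgE receptor CD23, 3.13-fold. All 3 receptors for a chemokine and for the B cell survival factors BAFF and APRIL were also lower. Cxcr5, which guides B cells to follicles, had values of 2.93, 2.66, -0.49 and -0.60 on WT 1 to 4 and of 3.10, 2.13, -1.20 and -0.68 on EP2KO 1 to 4. It was 10.9-fold lower on slide 2 (adjusted p = 0.000112), the smallest adjusted p of the 33 genes. Tnfrsf13c, the BAFF receptor, had values of 1.90, 1.16, -1.92 and -1.32 on WT 1 to 4 and of 1.73, 0.76, -2.95 and -2.43 on EP2KO 1 to 4. In both genes replicates 1 and 2 of both genotypes were high and replicates 3 and 4 low. Tnfrsf13c was 11.7-fold lower on slide 2 (limma adjusted p = 0.000299), a difference of -3.55, and its other probe gave -2.27. Tnfrsf13b, the receptor TACI, was 1.57-fold lower (adjusted p = 0.0418), but its arrays overlapped between the slides and the call was lost in 9 alternatives.

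Signalling genes were mixed: of 7, 5 were lower and 2 higher on slide 2, with a median of -0.72. Blk, a Src family kinase of B cells, had values of -1.50, -2.17, -4.56 and -4.96 on WT 1 to 4 and of -1.67, -2.49, -5.83 and -5.26 on EP2KO 1 to 4. It was 9.17-fold lower on slide 2 (limma adjusted p = 0.000244), with the slides far apart and the genotypes overlapping over the 8 arrays. Bank1, a B cell scaffold protein, was 6.26-fold lower, and Ralgps2, a guanine nucleotide exchange factor for Ral, 7.43-fold.

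Kinase and phospholipase genes that myeloid cells also express differed less between the slides. Btk was 1.31-fold lower on slide 2 (adjusted p = 0.0283), a call lost in 8 alternatives, and Plcg2 was 1.65-fold lower (adjusted p = 0.011). The adaptor genes Blnk and Stap1 were higher on slide 2. Blnk rose from values between 4.07 and 4.41 on slide 1 to values between 5.29 and 5.92 on slide 2, 2.63-fold (adjusted p = 0.000449). Stap1, an adaptor with an SH2 domain, rose 3.35-fold, from -0.80 to -0.50 on slide 1 to 0.75 to 1.85 on slide 2 (adjusted p = 0.00144).

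All 7 transcription factor genes were lower on slide 2, with a median of -2.41. Ebf1, which opens the B cell programme, had values of -0.81, -1.01, -4.12 and -3.65 on WT 1 to 4 and of -0.52, -1.60, -4.77 and -4.18 on EP2KO 1 to 4. The slides were apart, and Ebf1 was 9.14-fold lower on slide 2 (adjusted p = 0.000256). Spib, an ETS factor of B cells and plasmacytoid dendritic cells, had values of 3.27, 2.80, 0.34 and 0.78 on WT 1 to 4 and of 3.26, 2.66, -0.91 and -0.16 on EP2KO 1 to 4, and was 7.91-fold lower. Pou2af1, the octamer coactivator, was 8.48-fold lower, and Bcl11a, a zinc finger factor needed for B cell development, 5.30-fold. Pou2f2 was 2.02-fold lower and Bach2, a repressor that holds back plasma cell differentiation, 2.06-fold.

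**Figure D2:**
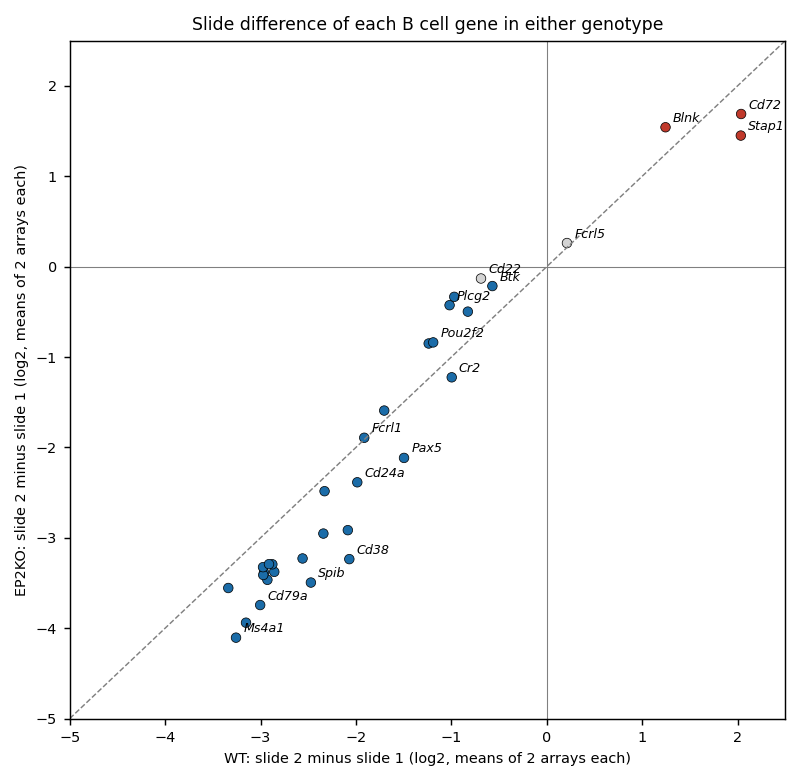
Slide 2 minus slide 1 difference on the log2 scale in WT (x axis) and in EP2KO (y axis), each from means of 2 arrays, for the 33 B cell genes; blue points were called lower, red higher and grey not called, and the dashed line marks equal differences. The 28 genes called lower lie below 0 on both axes, down to -3.26 and -4.11 in Ms4a1, and Cd72, Blnk and Stap1 lie above 0 on both.

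The question the groups were set up for is whether macrophages lacking EP2 differ from wild-type ones. None of the 33 B cell genes was called between the genotypes by limma, which called 2 features in all, 0.00965%, and 0 of the 33 had an unadjusted p under 0.05, against 1.98% of all features (1.47% lower in EP2KO). Differences ran from -0.97 ± 0.68 in Cd72 to 0.24 ± 0.52 in Blnk (SE, n = 4 arrays per genotype). Their median was -0.29, against -0.03 over all features, and 25 of 33 were below 0, against 56.6% of all features. That median was -0.84 without EP2KO 1, 0.09 without WT 1 and 0.13 without EP2KO 3, since the slides are then unequal between the genotypes. With the slide as a block, an alternative chosen after seeing the data, it ran from -0.51 to -0.17 with an array left out. Genotype groups did not separate for any of the 33, as they did downwards for 0.955% and upwards for 0.434% of all features. For the 27 genes wholly below and the 3 wholly above on slide 2, the slides fixed this, since each slide held both genotypes. The SE of the fit without a block also holds the slide difference: that of Cd79b was 1.16, and 0.24 with the slide as a block.

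In the defining markers the SD over the 4 arrays of a genotype, which holds the slide difference, exceeded the difference between the genotypes. Cd79a had a mean of -2.21 ± 1.78 in WT and -2.49 ± 2.21 in EP2KO (SD, n = 4; exact two-sided permutation p = 0.743). Cd79b had 3.92 ± 1.72 and 3.45 ± 2.00 (exact permutation p = 0.571), Ms4a1 3.23 ± 1.91 and 2.76 ± 2.41 (exact permutation p = 0.629), and Pax5 -4.82 ± 0.90 and -5.10 ± 1.26 (exact permutation p = 0.657). Adjusted over these 4 tests, each p was 0.743, and the smallest p that the 70 arrangements of the arrays allow is 0.0286. That test takes no account of slide or pairing. Each genotype had 2 arrays on each slide, and arrangements that split the slides unevenly carry the slide gap. A genotype difference small beside that gap therefore could not reach a low p, and these p-values do not decide whether the genotypes differed. Within a slide the SD of Cd79b was 0.33 on slide 1 and 0.53 on slide 2, and its value was lower in EP2KO in 4 of 4 pairs of the same number. With the replicate number as a block the difference of Cd79b was -0.47 ± 0.17 (SE, 4 pairs; limma adjusted p = 0.888), and Cd79a, Ms4a1 and Pax5 each had an adjusted p of 1.00.

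With the slide as a block, limma again called 0 of the 33 genes, and 4 features in all, 0.0193%. At an unadjusted p under 0.05, 2 of the 33 were lower in EP2KO, Cd72 (adjusted p = 0.125) and Vpreb3 (adjusted p = 0.534), and none was higher. Of all features 7.34% had such a p, 4.85% lower and 2.49% higher in EP2KO. With the replicate number as a block, which pairs WT and EP2KO arrays of the same number, 7 of the 33 had an unadjusted p under 0.05, all lower in EP2KO, against 3.83% of all features: Cd38, Cd72, Cd79b, Fcrl1, Fcrla, Tnfrsf13c and Vpreb3. The lowest adjusted p was then 0.45, and 0 features in all were called. That the samples were paired by number is an assumption. Another probe of Tnfrsf13c had a genotype difference of -0.12 over the 8 arrays, against -0.68 in the probe used. The other probe of Cd72 had -0.98, against -0.97.

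Cd72 was the only gene of the 33 with both EP2KO arrays below both WT arrays on each slide, a pattern of 4.1% of all features; 0 of the 33 had both above on each slide, against 2.92%. Its difference was -0.80 on slide 1 and -1.15 on slide 2. Vpreb3 had differences of -0.67 and -1.05, and Fcrl1 of -0.49 and -0.47. Pou2f2, the gene of OCT2, had values of 0.27, 0.68, -1.1 and -0.33 on WT 1 to 4 and of 0.07, -0.30, -1.26 and -0.64 on EP2KO 1 to 4. Both EP2KO arrays were lower than both WT arrays of slide 1, but they overlapped on slide 2.

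**Figure D3:**
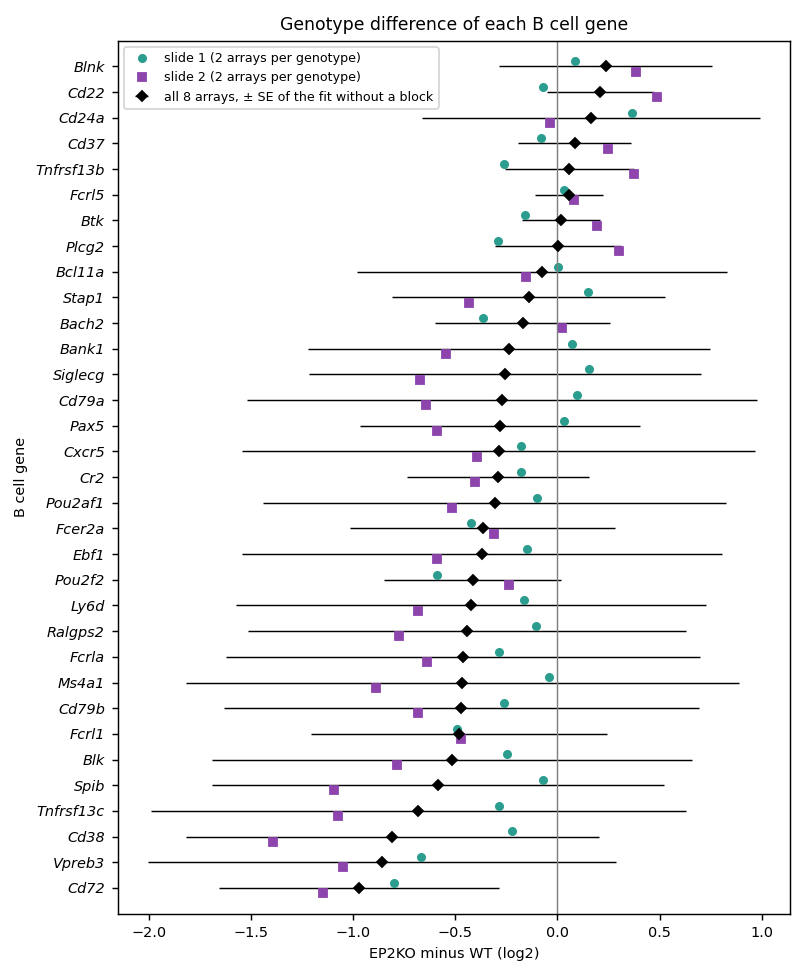
EP2KO minus WT difference on the log2 scale (x axis) for each of the 33 B cell genes (y axis): circles are slide 1 and squares slide 2 (2 arrays per genotype on each), and diamonds with bars are the difference over 8 arrays with its SE in the fit without a block. The slide 1 differences have a median of -0.16 and the slide 2 differences of -0.52, and Cd72 is at -0.80 and -1.15.

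The genotype difference was also set out per slide. On slide 1 the median of the 33 genes was -0.16, with 24 below 0 against 63.3% of all features. On slide 2 the median was -0.52, with 25 below 0 against 43.2% of all features. Limma on slide 2 alone called 0 of the 33 and 217 features in all, 1.05%, and 8 of the 33 were lower at an unadjusted p under 0.05, against 10.6% of all features. On slide 1 alone it called 0 features, and 1 of the 33 was lower at an unadjusted p under 0.05, against 7.65%. Both EP2KO arrays were below both WT arrays for 17 of 33 genes on slide 2, against 21.4% of all features. On slide 1 they were for 4 (Btk, Cd72, Plcg2 and Pou2f2), against 33.9%, although another kept probe of Btk overlapped there. The 17 were Blk, Cd38, Cd72, Cd79a, Cd79b, Cr2, Cxcr5, Ebf1, Fcer2a, Fcrla, Ly6d, Ms4a1, Pax5, Ralgps2, Spib, Tnfrsf13c and Vpreb3. For Cr2 and Tnfrsf13c this depends on the probe, since another kept probe of each overlapped between the genotypes on slide 2. Blnk, Btk, Cd22, Cd37, Plcg2 and Tnfrsf13b had both EP2KO arrays above both WT arrays on slide 2. The share of all features with that pattern was not computed, so these genes are only listed. In another kept probe of Tnfrsf13b the genotypes overlapped on slide 2.

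Whether these differences differed between the slides was tested with the interaction of genotype and slide. Limma called 0 of the 33, and 3 features in all, 0.0145%. Plcg2 alone of the 33 had an unadjusted p under 0.05 (adjusted p = 0.234), against 21.1% of all features. Plcg2 had values of 4.84, 5.0, 3.82 and 3.98 on WT 1 to 4 and of 4.75, 4.50, 4.04 and 4.36 on EP2KO 1 to 4. Its EP2KO arrays lay below the WT arrays on slide 1 and above them on slide 2.

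Btk showed the same crossing in the probe used, with values of 2.62, 2.75, 2.11 and 2.11 on WT 1 to 4 and of 2.61, 2.43, 2.26 and 2.35 on EP2KO 1 to 4 (interaction adjusted p = 0.311). On slide 1 EP2KO 1 lay only just below WT 1 (2.613 against 2.616). In the other kept probe of Btk, EP2KO 1 (-0.46) lay above WT 1 (-0.68) and WT 2 (-0.66), so the crossing depends on the probe. Opposite sides on the slides were found for 17.5% of all features. The genotype difference of Spib was -0.07 on slide 1 and -1.1 on slide 2 (interaction adjusted p = 0.281), and that of Cd38 was -0.22 and -1.39 (adjusted p = 0.315).

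Within each slide and genotype, where the arrays differ in replicate and in position on the slide, most of the B cell genes lay to the same side from array to array. From EP2KO 1 to EP2KO 2, 31 of 33 genes were lower (median -0.77), against 56.3% of all features. Between WT 1 and WT 2, 27 were lower in WT 2 (median -0.30), against 38.4%. On slide 2, 26 were higher in WT 4 than in WT 3 (median 0.30), where 56.3% of all features were lower, and 27 were higher in EP2KO 4 than in EP2KO 3 (median 0.52), where 49.5% were lower.

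The 18 genes that were over 4-fold lower on slide 2 did so almost without exception. All 18 were lower in EP2KO 2 than in EP2KO 1 (median -0.88), and 17 were lower in WT 2 than in WT 1 (median -0.38). On slide 2, 17 were higher in EP2KO 4 than in EP2KO 3 (median 0.67) and 16 were higher in WT 4 than in WT 3 (median 0.49). EP2KO 3 was the lowest array for 17 of the 18, which were chosen for low values on slide 2. It was the lowest for 23 of all 33, against 10.5% of all features. EP2KO 1 was the highest array for 14 of the 33 and WT 1 for 10, against 6.4% and 9.58% of all features. For the 27 genes with slide 2 wholly below slide 1, the lowest array had to be on slide 2 and the highest on slide 1. Only 18% of all features had that pattern, so their shares are not a like baseline. These counts describe the arrays and have no test. Since the arrays fell into 2 slides of 4, no correlation across arrays is given.

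**Figure D4:**
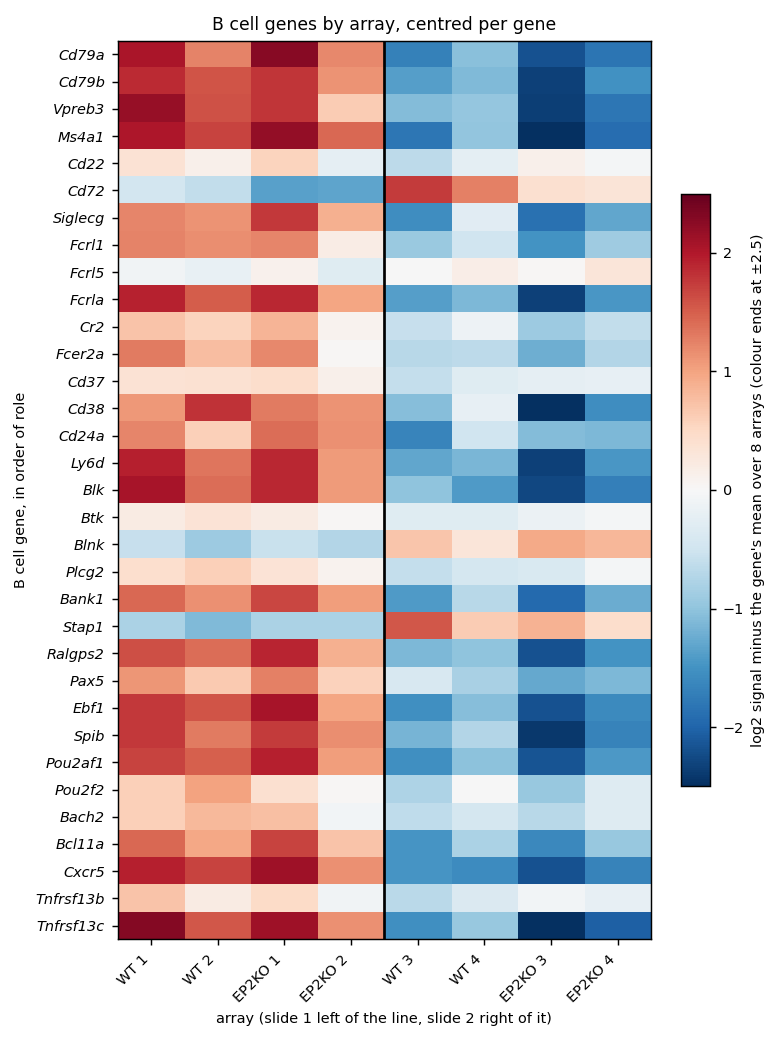
Each of the 33 B cell genes (rows, by role) on each of the 8 arrays (columns), as the log2 value minus the gene's mean over the arrays (red above and blue below the mean, with slide 1 left of the line). Slide 1 and slide 2 columns have opposite colours in most rows, and the rows of Cd72, Blnk and Stap1 are turned round. The EP2KO 3 column is the lowest in 23 of 33 rows, against 10.5% of all features, of which only 18% lay wholly lower on slide 2.

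With each gene centred on its mean over the arrays, the median of the 33 genes was 1.24, 1.11, -1.06 and -0.65 on WT 1 to 4, against 1.40, 0.72, -1.60 and -1.13 on EP2KO 1 to 4. The SD of that median was 1.32 within a genotype and 0.33 within a slide and genotype.

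Other genes of B cells followed. Of 28 further B cell genes tested, 22 were lower and 1 was higher on slide 2, against 18.2% and 25.1% of all features. Their median was -1.21, and none was called between the genotypes (limma, 0 at an unadjusted p under 0.05). With the slide as a block 3 were lower and 0 higher at such a p, against 4.85% and 2.49% of all features. H2-DMb2, a chain of a chaperone for class II antigen presentation, had a slide difference of -3.46. Neither Mef2c (-0.31) nor Cd40 (-0.59), the genes of this list with the smallest genotype p, passed the test of the genotypes.

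The wider receptor signalling pathway, which macrophages share in large part, was mixed. Of 33 genes tested, 9 were lower, 6 were higher and 18 were not called between the slides, with a median of -0.07. Of all features 18.2% were lower and 25.1% higher. Limma called 0 of the pathway's genes between the genotypes (1 at an unadjusted p under 0.05, against 1.98% of all features). With the slide as a block 2 were lower and 0 higher at such a p, against 4.85% and 2.49%. Fyn, a Src family kinase, and Prkcb, a protein kinase C, had genotype differences of -0.30 and -0.19. Cd5, a coreceptor of T cells and B-1 cells, had values between -0.88 and 0.79 on slide 1 and between -3.27 and -2.31 on slide 2.

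Of 10 genes listed for B-1 and innate-like B cells, 6 were lower and 3 higher on slide 2, against 18.2% and 25.1%. Zbtb32, a repressor found in B-1 and memory B cells, had a slide difference of -3.96 and Rgs1, a regulator of G protein signalling also induced in activated myeloid cells, one of 4.05. Genotype differences of 0.52 in Cd9 and 0.51 in Bhlhe41 did not pass. With the slide as a block, limma found 2 of the 10 higher and 1 lower in EP2KO at an unadjusted p under 0.05. The shares of all features were 2.49% and 4.85%, and 0 of the 10 were called.

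Of 12 plasma cell genes, 3 were lower and 3 higher on slide 2, against 18.2% and 25.1% of all features. Limma called 0 between the genotypes (1 at an unadjusted p under 0.05, against 1.98% of all features). With the slide as a block 3 were lower and 1 higher at such a p, against 4.85% and 2.49%. Mzb1, a chaperone of marginal zone B cells and plasma cells, had a slide difference of -3.41. Jchain, which joins secreted IgM and IgA, had values of 1.70, 0.38, 1.89 and 1.79 on WT 1 to 4 and of -0.71, 0.20, -4.46 and -4.82 on EP2KO 1 to 4. All EP2KO arrays were below all WT arrays, with a difference of -1.29 on slide 1 and -6.48 on slide 2, but the genotype difference of -3.88 ± 1.17 (SE, n = 4) did not pass (adjusted p = 1.00) and neither did the interaction (adjusted p = 0.0822). Derl3, of the endoplasmic reticulum of secretory cells, had a genotype difference of -1.40.

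Markers of T and NK cells moved between the slides with the B cell genes. Of 30 tested, 25 were lower and 2 higher on slide 2, against 18.2% and 25.1% of all features, with a median of -2.26. Their summed level, on a linear scale relative to the 75th percentile, was weighted to the brightest probes. It was 27.6 to 58.4 on slide 1 and 23.3 to 35.1 on slide 2. Cd3d, a chain of the T cell receptor complex, had a slide difference of -2.92 and was well above background on 8 of 8 arrays. With the slide as a block, limma found 21 of the 30 lower in EP2KO and 1 higher at an unadjusted p under 0.05. The shares of all features were 4.85% lower and 2.49% higher, and 2 of the 33 B cell genes were lower. In either list 0 genes were called between the genotypes. Il7r, also a T cell marker, was higher on slide 2 by 3.83. Lat and Bcl11b, with the smallest genotype p of this list, had differences of -0.78 and -1.73 that did not pass.

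Macrophage markers had a smaller median difference and went both ways. Of 19, 8 were lower and 4 higher on slide 2, against 18.2% and 25.1% of all features. Their median was -0.37, and their summed level was 649 to 768 on slide 1 and 516 to 709 on slide 2. Timd4, a phosphatidylserine receptor of resident macrophages, and Marco, a scavenger receptor, fell about as far as the median B cell gene, 5.09-fold (-2.35, adjusted p = 0.00238) and 5.01-fold (-2.32, adjusted p = 0.00274). Cd14, the LPS coreceptor, fell 2.35-fold and Aif1, a calcium-binding protein of macrophages, 2.05-fold, whereas Adgre1 (-0.10), Csf1r (-0.10) and Lyz2 (-0.01) were not called between the slides. Between the genotypes Adgre1 (0.32) and Aif1 (-0.76), with the smallest p of this list, did not pass. All EP2KO arrays of Adgre1 lay above all WT arrays, a pattern of 0.434% of all features. With the slide as a block, limma found 3 of the 19 higher and 1 lower in EP2KO at an unadjusted p under 0.05. The shares of all features were 2.49% and 4.85%, and 0 of the 19 were called. The part that T and NK cells, macrophages, other cells, the slide or the scan had in the slide difference of the B cell genes was not tested.

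**Figure D5:**
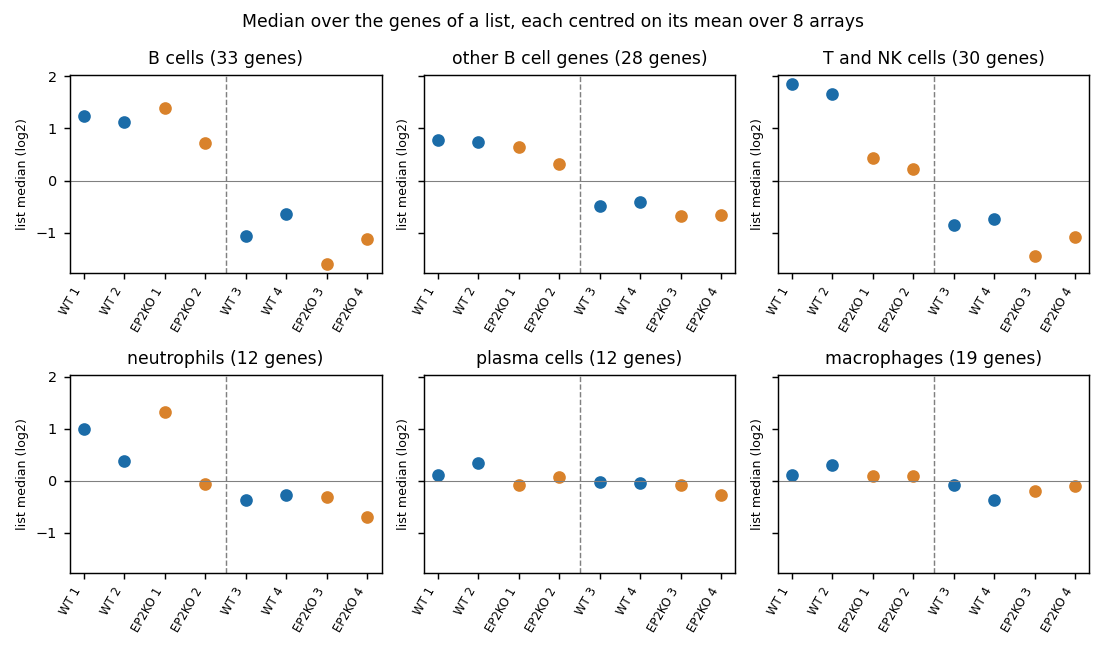
Median over the genes of each list of the log2 value centred on each gene's mean (y axis) on each of the 8 arrays (x axis), for the 33 B cell genes and 5 other lists, blue for WT and orange for EP2KO, with slide 1 left of the dashed line. The B cell genes lie between 0.72 and 1.40 on slide 1 and between -1.60 and -0.65 on slide 2, and the macrophage markers stay between -0.36 and 0.30.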

How the data were processed

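Macrophage RNA of 8 samples from LPS-treated mice (4 WT, 4 EP2KO) was measured on 1-colour Agilent arrays. Per the labels' protocols, 0.5 µg of RNA entered the Cy3 labelling. Linear spot intensity is what the authors deposited in the scanner files, background-corrected by Feature Extraction 10.7.1.1 per the file headers (9.1 per the submitters' processing notes) with no scaling from array to array. Their deposited series table held the same intensity values (largest log2 difference 0).

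From these, log2 of the processed signal minus each array's 75th percentile was computed, with outlier spots missing. Probes were named through RefSeq transcripts (GRCm38.p6; the array design states mm9, so no probe coordinates are given), which named 27508 of 39429. Probes had to be well above background on every array of 1 genotype or of both, and a gene was read from the brightest of its probes that passed, which left 20736 features. Fits used limma 3.58.1 in R 4.3.3, two-sided, with Benjamini-Hochberg adjustment over all features. The scripts were tested on simulated data. All comparisons share the same 8 arrays.

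Members, lists and tests were chosen with earlier results of these data known. Values array by array are given for Cd79a, Cd79b, Ms4a1 and Pax5, then by smallest genotype p (6 genes), largest slide difference (4) and smallest interaction p (4). In each other list the 2 genes with the smallest genotype p and the 2 with the largest slide difference are named, except for 1 gene that is not reported here. Jchain is given array by array, and Blnk and Stap1 by their ranges, and Cd14, Csf1r and Lyz2 are named beside the macrophage list, chosen after their values were seen.

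Replicate numbers are shared by the genotypes in the labels. Deviations of same-numbered arrays from their group means correlated at 0.74, 0.12, 0.55 and 0.43. These deviations also hold the slide difference, and same numbers share a slide, so the correlations cannot show whether samples were paired. The replicate block takes the pairing as an assumption. Alternatives were other scalings, background correction, filters, probe rules, variance models, blocks and leaving out each array.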

Additional observations from a re-analysis of the deposited data

How the results depend on the processing

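Of the 33 B cell genes, 0 were called between the genotypes and 0 for the interaction under every alternative run, and between 29 and 32 were called between the slides. Of the slide calls of single genes, Btk was lost in 8 and Tnfrsf13b in 9 fits, Cd22 passed without EP2KO 2 (-0.62, adjusted p = 0.0232), and Fcrl5 turned from 0.24 to -0.45 with the mean of its probes. With probes filtered by slide, an alternative chosen after seeing the data, 31 were called. The features called between the genotypes (2) became 4 with the slide as a fixed block, 4 as a random block, 0 with the replicate block, 0 on slide 1 alone, 217 on slide 2 alone and 0 to 4 with an array left out. Those called for the interaction (3) became 5 with median scaling, 47 with normexp, 1 with no filter, 14 with probes above background on all arrays, 11 with a trended variance and 0 to 1441 with an array left out. The median genotype difference of the 33 genes (-0.29) was -0.23 with quantile scaling, -0.15 with median scaling (which moved the median over all features from -0.03 to 0.11) and -0.16 with normexp. Without an array it ran from -0.84 (EP2KO 1 left out) to 0.13 (EP2KO 3 left out), since the slides are then unequal between the genotypes; with the slide as a block, an alternative chosen after seeing the data, it ran from -0.51 to -0.17. With 2 arrays per slide and genotype, small differences were not detectable.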

Other observations

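Neutrophil and dendritic cell genes were also read in these samples. Of 12 neutrophil genes tested, 6 were lower and 2 higher on slide 2, against 18.2% and 25.1% of all features. Their median was -1.45, and their summed level was 69.2 to 130 on slide 1 and 55.4 to 60.5 on slide 2. S100a9, a calcium-binding protein abundant in neutrophils, had the largest slide difference of that list, -4.13, and Mmp8, a neutrophil collagenase, differed by 2.63. Genotype differences of 0.91 in Ltf, which encodes lactoferrin, and -1.25 in Cxcr2, a chemokine receptor of neutrophils, did not pass. Of 16 dendritic cell genes, 6 were lower and 2 higher on slide 2, beside the same shares of all features, with a median of -0.40. Ccr7, which guides dendritic cells and lymphocytes to lymph nodes, differed by -3.13 and Fscn1, an actin-bundling protein of mature dendritic cells, by -2.11. Genotype differences of -1.41 in Cacnb3, a calcium channel subunit, and -0.65 in Flt3, a growth factor receptor of dendritic cell precursors, did not pass. None of either list was called between the genotypes by limma (0 at an unadjusted p under 0.05 in either, against 1.98% of all features). With the slide as a block, 4 of the 16 dendritic cell genes and 2 of the 12 neutrophil genes were lower at such a p. None was higher, and the shares of all features were 4.85% lower and 2.49% higher.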
